A study of Saccharomyces cerevisiae with 30 samples.

Results

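Yeast makes its sulfur amino acids from sulfate or takes them up from the medium, and 38 genes of this metabolism were followed through the loss of a centromere. They were chosen by name for their known roles, from sulfate uptake to methionine, cysteine, glutathione and S-adenosylmethionine, with the regulators of the pathway, and all 38 were found among the 7127 genes of the deposited table. Sequencing of RNA gave 10 groups of 3 libraries, from 3 independent experiments with MATa budding yeast (S288c background, haploid). In the lox strain, lox sites flank the centromere of chromosome IV. This strain is named CEN4* at 0 min and cen4- at 30, 60, 120 and 180 min after 1 µM beta-estradiol. It is MATa and carries lox-CEN4-lox:KanMX and the construct GDP-creEBD78:LEU2. The control strain, CEN4, has no lox sites at the centromere and was sampled at the same times after the same treatment. It is MATa too, with its construct given as ura3::GDP-cre EBD78:LEU2. Both strains carry the alleles his3-delta-1 and leu2-delta-0 and also ura3-delta-0 together with met15-delta-0. Both express Cre-EBD78, a recombinase fused to an estradiol-binding domain, from the GDP promoter, and both were grown at 30 °C in YPD, a rich medium that supplies methionine and other organic sulfur. Both also lack MET15, also named MET17, the sulfhydrylase that joins sulfide to O-acetylhomoserine, so every library comes from cells without the step that fixes reduced sulfate into homocysteine. The populations were sampled whole, so the share of cells that had lost the centromere and the change per cell cannot be told apart.

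Sulfate enters the cell through permeases, is activated with ATP and reduced in steps to sulfide, and sulfide is joined to a carbon skeleton made from aspartate to give homocysteine. Homocysteine becomes methionine, which feeds S-adenosylmethionine, the methyl donor of the cell, or passes through cystathionine to cysteine and glutathione. The pathway genes are switched on by the activator Met4, which has no DNA-binding activity of its own and is carried to promoters by Cbf1 or by Met31 and Met32. When methionine and S-adenosylmethionine are plentiful, the ubiquitin ligase subunit Met30 holds Met4 inactive.

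Cbf1 is known to recognise CACGTG, and Met31 and Met32 a site with the core CTGTGG. Both were searched as exact letters, on both strands, in the 300 bases from 400 to 101 before the start codon. CACGTG was found in the windows of 20 of the 38 genes (52.6%), against 273 of 6001 protein-coding genes of the R64 annotation (4.55%). CTGTGG was found in 20 of the 38 (52.6%), against 501 of the 6001 (8.35%). Both were found in 9 of the 38 (23.7%) and in 33 of the 6001 (0.55%). The 300 bases are printed here for the 4 genes with the largest rise at 180 min, because their promoters are those on which the regulators named above could be looked for; RefSeq's R64 assembly is the source, and capitals mark the matches.
MET5, chrX:683386-683685, minus strand: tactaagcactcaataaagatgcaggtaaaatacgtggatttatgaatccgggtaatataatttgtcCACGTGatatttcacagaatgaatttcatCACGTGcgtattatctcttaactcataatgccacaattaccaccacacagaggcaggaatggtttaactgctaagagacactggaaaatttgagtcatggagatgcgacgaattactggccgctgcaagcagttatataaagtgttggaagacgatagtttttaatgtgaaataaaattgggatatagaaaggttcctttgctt
MET14, chrXI:439486-439785, minus strand: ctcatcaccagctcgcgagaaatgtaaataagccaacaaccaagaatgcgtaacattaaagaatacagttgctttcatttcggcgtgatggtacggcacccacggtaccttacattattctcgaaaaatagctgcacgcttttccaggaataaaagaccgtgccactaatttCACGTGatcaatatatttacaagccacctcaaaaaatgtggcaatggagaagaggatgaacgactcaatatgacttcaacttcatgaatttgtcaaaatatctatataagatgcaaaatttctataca
STR3, chrVII:156113-156412, minus strand: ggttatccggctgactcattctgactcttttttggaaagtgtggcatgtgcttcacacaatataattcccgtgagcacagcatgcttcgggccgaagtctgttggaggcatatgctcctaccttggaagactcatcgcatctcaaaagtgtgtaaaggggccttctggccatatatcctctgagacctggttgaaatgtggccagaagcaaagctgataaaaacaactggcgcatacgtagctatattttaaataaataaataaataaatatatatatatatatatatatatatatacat
MET3, chrX:455839-456138, plus strand: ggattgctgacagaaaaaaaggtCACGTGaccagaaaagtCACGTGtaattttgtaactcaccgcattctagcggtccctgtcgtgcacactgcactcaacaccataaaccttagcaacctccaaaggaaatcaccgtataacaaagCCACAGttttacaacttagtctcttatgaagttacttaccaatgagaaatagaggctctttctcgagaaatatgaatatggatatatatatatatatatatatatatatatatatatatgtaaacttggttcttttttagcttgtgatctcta
MET5 has CACGTG at 333 and 304 bases before its start codon, MET14 has 1 copy at 228 bases, and MET3 has copies at 377 and 360 bases with 1 CTGTGG on the opposite strand at 253 bases. The STR3 window holds neither run of letters, and neither do those of SAM4 and HOM2, the genes with the lowest excision effects at 180 min. The windows of SAM4 and HOM2 overlap the neighbouring reading frames SAM3 and YDR157W and are not printed. A match is a run of letters and not a shown binding site. The lack of an exact match in the window does not show that a site is absent.

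Library totals ranged from 8218002 to 14956813 reads. Values are normalised counts, that is reads divided by the library's size factor. In all 30 libraries the regulator gene MET28 was listed at 0, as were MET17 and URA3, which the genotypes give as deleted; HYP2 and LSM8, which have general roles in translation and RNA processing, were listed at 0 as well, so a 0 is given here only as listed. The other 37 genes had a mean of at least 10 normalised counts and were tested among 5948 genes. The MATa gene STE2 averaged 8601 ± 124 normalised counts in cen4- at 180 min and 14849 ± 213 in CEN4 (SD, n = 3 each). The MATalpha gene STE3 averaged 70.9 ± 5.5 in cen4- and 69.9 ± 19.7 in CEN4. All 6 MATa markers were lower in cen4- by the excision effect at 180 min, where 22.5% of all tested genes were lower and 19.8% higher. Their median was -0.76 and their range -1.52 to -0.60 on the log2 scale. At 0 min 5 of the 6 were already called lower in CEN4* than in CEN4 (median -0.24), where 7.06% of all tested genes were lower. By the excision effect at 180 min 0 of 4 MATalpha markers passed, none of them listed at 0. The part of these mating-type genes in the sulfur results was not tested. Scaling every library to the same total, in place of the size factors, moved the median excision effect of all genes at 180 min by 0.10 on the log2 scale and the share of calls that were higher to 70.2% of all calls, against 46.9%.

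The main comparison, called the excision effect, sets how far a gene moved since 0 min in the lox-CEN4-lox strain against how far it moved in CEN4, as a difference (lox strain minus CEN4) on the log2(normalised count + 1) scale. It removes what both strains share over time and a constant difference between them, and effects at different times share the 0 min libraries. A gene was called where limma's adjusted p (Benjamini-Hochberg over all tested genes) was below 0.05. At 30 min 7 of the 37 sulfur genes were higher in cen4- and 0 lower, where 0.841% of all tested genes were higher and 1.01% lower. At 60 min 5 were higher and 0 lower (0.891% and 2.02% of all genes). At 120 min 20 were higher and 2 lower (11.9% and 14.2%), and at 180 min 25 were higher and 3 lower (19.8% and 22.5%). The median effect of the sulfur genes was 0.09, 0.12, 0.23 and 0.47 at these 4 times, and that of all genes at 180 min was -0.01. The median direct difference of the strains over the sulfur genes was -0.04 at 0 min and 0.06 at 30 min. The effect takes the 0 min difference off, so a low start adds to it. MUP1, called with 0.18 at 30 min, differed by -0.10 at 0 min. At 180 min the excision effect was at least 2-fold for 5 genes, as a difference of changes and not as a rise in cen4- alone. The share of all genes at that size was not counted. The median of the sulfur genes stood 0.48 above that of all genes at 180 min. Scaling to the same total shifts all genes nearly alike, so it cannot test this distance. At an unadjusted p under 0.05, 12 were higher and 0 lower at 30 min (5.31% and 8.1% of all genes), and 15 were higher and 0 lower at 60 min (5.62% and 8.59%). By edgeR 7 were higher and 0 lower at 30 min (0.807% and 0.757%), and 4 and 0 at 60 min (0.706% and 2%). By DESeq2 the counts were 7 and 0 at 30 min (0.856% and 1.15%), and 6 and 0 at 60 min (1.22% and 3.05%). The 30 min count was 4 without CEN4 30 min replicate 1, which lost SAM2, MUP1 and SAM3. The 60 min count was 2 without CEN4 60 min replicate 1, which lost MET3, MET2 and MET13. It was 3 without CEN4* 0 min replicate 3 and 8 without cen4- 60 min replicate 3.

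**Figure D1:**
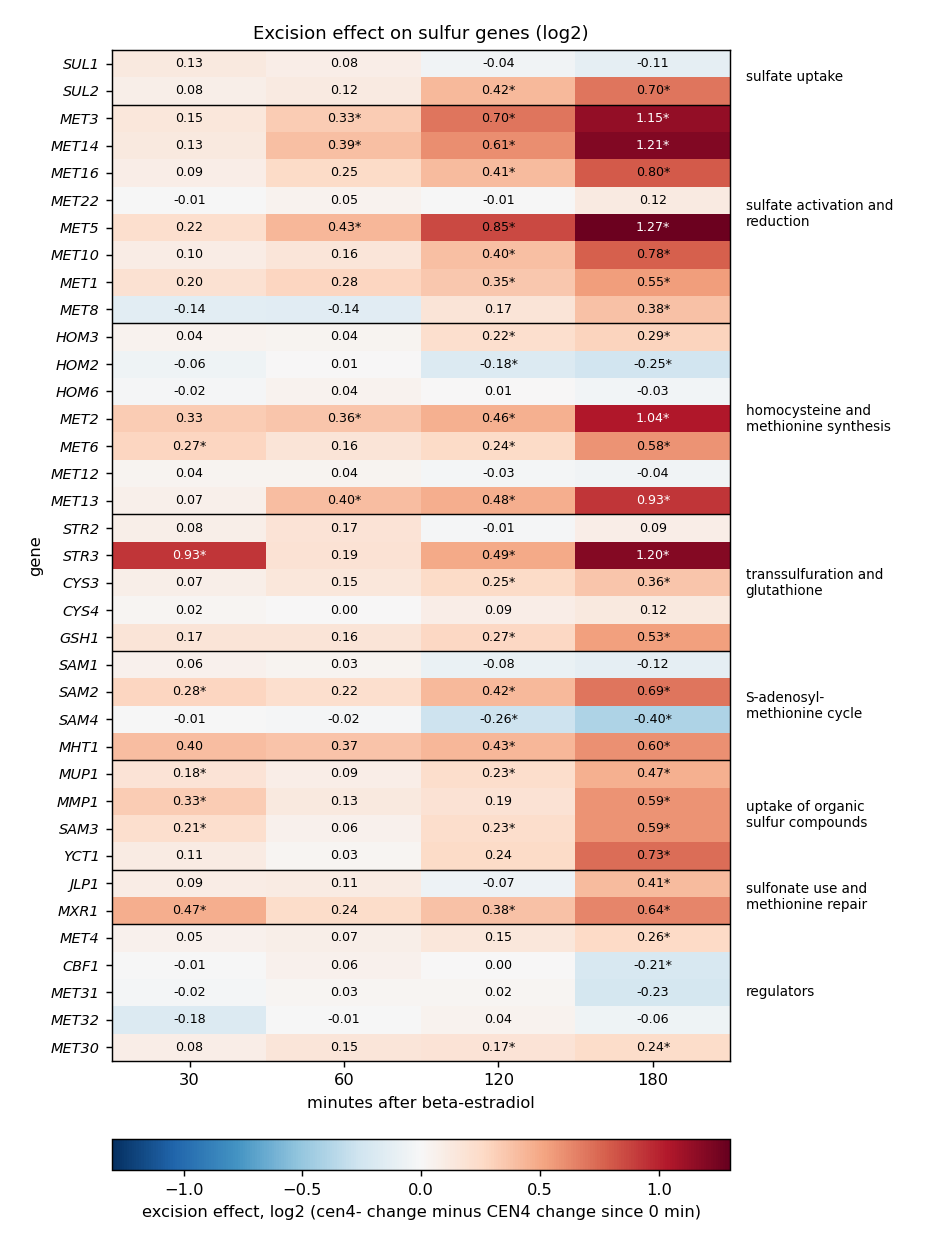
Excision effect (log2; cen4- change since 0 min minus CEN4 change since 0 min) of the 37 tested sulfur genes, in rows grouped by role, at 30, 60, 120 and 180 min in columns. Red is higher and blue lower in cen4-, each cell gives its value, and an asterisk marks an adjusted p below 0.05; the sulfate activation and reduction rows, MET22 excepted, deepen after 60 min to a maximum of 1.27 for MET5 at 180 min.

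**Figure D2:**
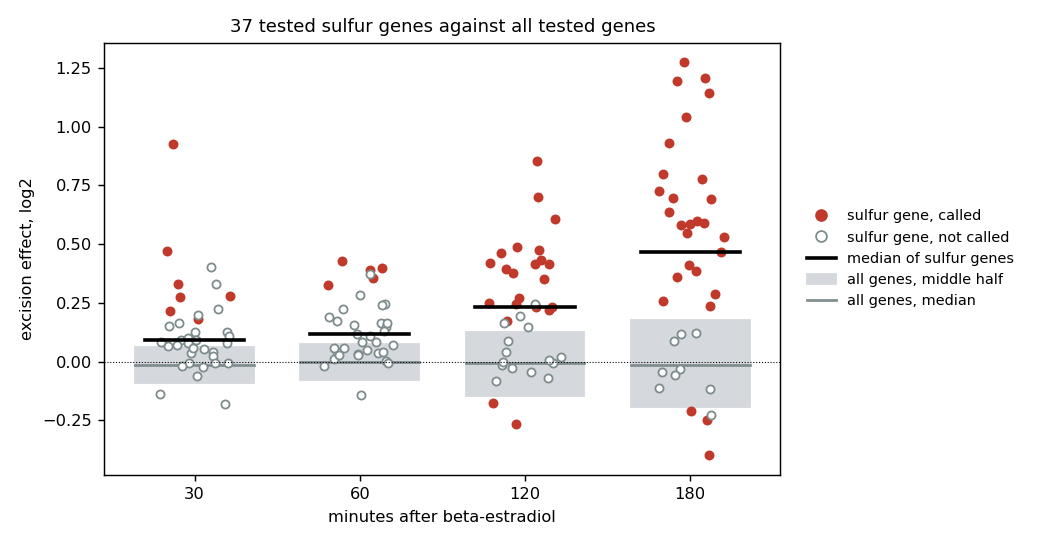
Excision effect (log2, vertical axis) of the 37 tested sulfur genes at each time, filled red where called and open where not, with their median as a black bar. Grey boxes span the 25th to 75th percentile of all 5948 tested genes with their median as a grey line, and at 180 min the sulfur median of 0.47 stands above the box.

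Among the 8 genes of sulfate activation and reduction, 6 were higher in cen4- at 120 min and 7 at 180 min (11.9% and 19.8% of all tested genes). The median of the group was 0.79 at 180 min. MET5 (YJR137C, chrX:678957-683285, minus strand) encodes the beta subunit of sulfite reductase, the enzyme that makes sulfide. At 0 min it had 892, 914 and 860 normalised counts in CEN4*, against 861, 850 and 862 in CEN4. At 30 min the counts were 1007, 988 and 900 in cen4-, against 774, 827 and 793 in CEN4. By 60 min they were 1536, 1490 and 1464 in cen4-, against 1058, 1083 and 1084 in CEN4. The strains overlapped at 0 min, and at 30 and 60 min each cen4- library was above each CEN4 library. At 120 min MET5 had 1916, 1787 and 1834 in cen4-, against 1056, 912 and 992 in CEN4. At 180 min it had 1952, 1929 and 1987 in cen4-, against 816, 751 and 776 in CEN4. The cen4- libraries were highest at 180 min, while the CEN4 libraries were by then below their 0 min values, a direction that turned (a change of 0.07) with every library scaled to the same total. The excision effect on MET5 was 0.43 ± 0.07 (SE, adjusted p = 1.53e-05) at 60 min, 0.85 ± 0.07 (adjusted p = 3.21e-16) at 120 min and 1.27 ± 0.07 (adjusted p = 2.46e-24) at 180 min by limma. MET10 (YFR030W, chrVI:213312-216419, plus strand) encodes the alpha subunit of the same enzyme. It had 1341, 1291 and 1244 normalised counts in cen4- at 180 min, against 733, 730 and 691 in CEN4. At 0 min MET10 had 807, 833 and 833 in CEN4*, against 834, 719 and 813 in CEN4. The libraries of the strains overlapped at 0 min and were apart at 180 min, and the effect was 0.78 ± 0.08 (SE, limma adjusted p = 2.49e-13).

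MET3 (YJR010W, chrX:456239-457774, plus strand) encodes ATP sulfurylase, which activates sulfate. At 0 min MET3 had 481, 463 and 446 normalised counts in CEN4*, against 518, 548 and 486 in CEN4. By 120 min MET3 had 964, 980 and 825 in cen4-, against 617, 637 and 642 in CEN4. Its counts at 180 min were 965, 999 and 896 in cen4-, against 469, 479 and 492 in CEN4. The lox strain was thus below CEN4 in all libraries at 0 min, a strain difference that limma did not call, and above it in all libraries at 120 and 180 min. The excision effect was 0.70 ± 0.09 (SE, adjusted p = 8.41e-10) at 120 min and 1.15 ± 0.09 (adjusted p = 4.75e-18) at 180 min. MET14 (YKL001C, chrXI:438777-439385, minus strand) encodes adenylylsulfate kinase, the next enzyme, and had 927, 973 and 985 normalised counts in cen4- at 180 min, against 431, 466 and 437 in CEN4. At 0 min it had 464, 448 and 476 in CEN4*, against 511, 496 and 474 in CEN4. The strains overlapped at 0 min and were apart at 180 min, and the change between these times was 1.05 in cen4- and -0.15 in CEN4, or 0.06 in CEN4 with every library scaled to the same total. The effect on MET14 was 1.21 ± 0.08 (SE, limma adjusted p = 6.56e-20). MET16 (YPR167C, chrXVI:876847-877632, minus strand) encodes PAPS reductase, which makes sulfite. It had 407, 415 and 414 normalised counts in cen4- at 180 min, against 257, 239 and 264 in CEN4, and 182, 186 and 199 in CEN4* at 0 min, against 216, 225 and 170 in CEN4. This gene rose in both strains and more in cen4-, with an effect of 0.80 ± 0.13 (SE, limma adjusted p = 6e-07). MET1 and MET8 make siroheme, the cofactor of sulfite reductase. MET1 was higher by 0.55 ± 0.10 and MET8 by 0.38 ± 0.12 (SE) at 180 min. MET22 encodes the phosphatase that clears the adenosine bisphosphate left by sulfate reduction, and its effect of 0.12 at 180 min did not pass the test.

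**Figure D3:**
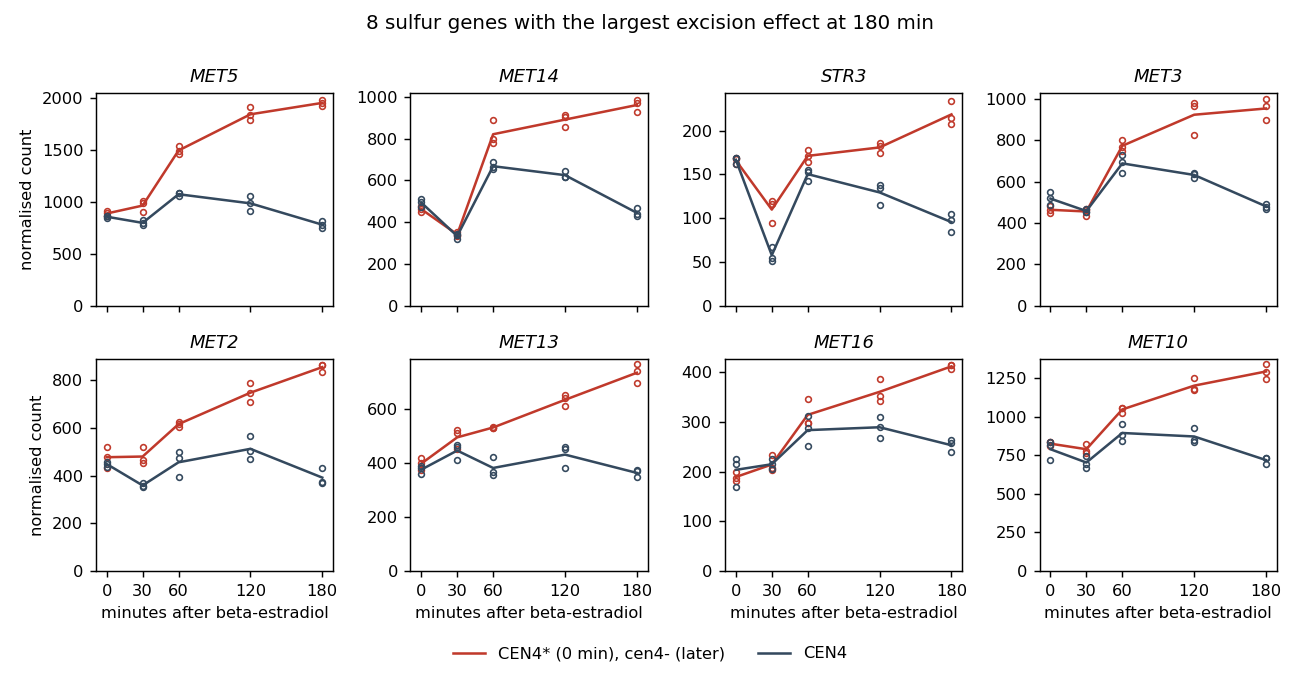
Normalised counts (vertical axis, from 0) against minutes after beta-estradiol for the 8 sulfur genes with the largest absolute excision effect at 180 min. Points are single libraries and lines join group means. CEN4* at 0 min and cen4- later are in red and CEN4 in dark blue. At 180 min no cen4- library overlaps a CEN4 library in any of the 8 panels. The genes were picked by their effect at 180 min, so that gap is no separate evidence. Of all tested genes, 33.6% had all cen4- libraries above and 35.8% below all CEN4 libraries at 180 min. MET14, MET3 and STR3 dip or stay level at 30 min in both strains.

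Of the sulfate permease genes, SUL2 (YLR092W, chrXII:323544-326225, plus strand) had a called excision effect at 180 min and SUL1 did not. SUL2 was also the sulfur gene with the largest difference between the strains before the recombinase was switched on. At 0 min SUL2 had 335, 344 and 292 normalised counts in CEN4*, against 252, 245 and 299 in CEN4. Here 1 CEN4* library lay below the highest CEN4 library, and the difference of 0.29 ± 0.07 (SE, limma adjusted p = 0.00258) was called. At 180 min SUL2 had 674, 712 and 714 in cen4-, against 375, 355 and 332 in CEN4. These groups were apart, and the excision effect, which takes the 0 min difference off, was 0.70 ± 0.10 (SE, limma adjusted p = 7.4e-08). SUL1 averaged 343 normalised counts in cen4- and 363 in CEN4 at 180 min, and its libraries overlapped.

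Of the 7 genes that make homocysteine and methionine, HOM3, MET2, MET6 and MET13 were higher at 180 min and HOM2 was lower (19.8% and 22.5% of all tested genes). MET2 (YNL277W, chrXIV:117349-118809, plus strand) encodes homoserine O-acetyltransferase, which commits homoserine to methionine, and had 835, 864 and 863 normalised counts in cen4- at 180 min, against 371, 430 and 373 in CEN4. At 0 min MET2 had 433, 479 and 519 in CEN4*, against 450, 437 and 458 in CEN4. The strains overlapped at the start and were 2.18-fold apart by their means at the end, with an excision effect of 1.04 ± 0.10 (SE, limma adjusted p = 3.67e-13). MET2 overlaps the reading frame YNL276C, which averaged 1.26 normalised counts, so few reads were counted there. MET13 (YGL125W, chrVII:272520-274322, plus strand) encodes the methylenetetrahydrofolate reductase that supplies the methyl group. At 0 min MET13 had 399, 420 and 375 normalised counts in CEN4*, against 381, 388 and 358 in CEN4. At 60 min MET13 had 531, 530 and 535 in cen4-, against 356, 367 and 423 in CEN4. At 180 min MET13 had 697, 742 and 766 in cen4-, against 371, 347 and 373 in CEN4. The strains were apart at 60 and 180 min and overlapped at 0 min. The effect was 0.40 ± 0.10 (SE, adjusted p = 0.01) at 60 min and 0.93 ± 0.10 (adjusted p = 5.42e-12) at 180 min by limma. The 60 min call of MET13 was lost without CEN4* 0 min replicate 3 and without CEN4 60 min replicate 1, with an adjusted p up to 0.0524 over the 40 alternative settings. MET6 encodes methionine synthase and averaged 6940 ± 78 normalised counts in cen4- at 180 min and 4814 ± 177 in CEN4 (SD, n = 3 each), an excision effect of 0.58 ± 0.05 (SE). MET12, a second gene of the reductase family, had an effect of -0.04, and HOM6, homoserine dehydrogenase, one of -0.03, and neither was called. HOM3, aspartate kinase, was higher by 0.29. HOM2, which encodes aspartate semialdehyde dehydrogenase and lies on chromosome IV, averaged 3060 ± 26 in cen4- at 180 min and 3761 ± 132 in CEN4 (SD, n = 3 each), an effect of -0.25 ± 0.05 (SE, limma adjusted p = 5.7e-05).

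Transsulfuration links cysteine and homocysteine in both directions, and of its genes STR3 and CYS3 were higher at 180 min. STR3 (YGL184C, chrVII:154615-156012, minus strand) encodes cystathionine beta-lyase, which releases homocysteine. Per kilobase of gene it had the lowest mean level of the 37 tested genes, 103 normalised counts per kb over all libraries. The counts of STR3 at 0 min were 168, 162 and 169 in CEN4*, against 169, 162 and 169 in CEN4. At 30 min they were 94.2, 116 and 119 in cen4-, against 67.2, 51.0 and 54.6 in CEN4. At 180 min they were 208, 234 and 214 in cen4-, against 84.0, 105 and 97.8 in CEN4. The strains overlapped at 0 min and were apart at 30 and 180 min, and STR3 fell in both by 30 min, by more in CEN4. The excision effect was 0.93 ± 0.16 (SE, adjusted p = 0.000218) at 30 min and 1.20 ± 0.16 (adjusted p = 1.1e-08) at 180 min by limma; at 60 min it was 0.19 and was not called. STR2, cystathionine gamma-synthase, had an effect of 0.09 at 180 min that was not called, with 624 normalised counts on average in cen4- and 627 in CEN4. In the other direction CYS3, cystathionine gamma-lyase, was higher by 0.36, while CYS4, cystathionine beta-synthase, had an effect of 0.12 that was not called. GSH1, which makes gamma-glutamylcysteine for glutathione, was higher by 0.53 ± 0.07 (SE, limma adjusted p = 1.6e-09).

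The 4 genes of the S-adenosylmethionine cycle and 3 of the 4 permease genes for organic sulfur fell in both strains by 180 min. Of all tested genes 37.7% fell in cen4- and 35.2% in CEN4 between 0 and 180 min. The share that fell in both strains was not counted. SAM3 fell in cen4- under the size factors only. The exception was YCT1, a cysteine permease gene, which rose in both strains. For SAM2, MHT1, MUP1, MMP1 and SAM3 the fall was smaller in cen4-. SAM2, a methionine adenosyltransferase gene on chromosome IV, averaged 2142 ± 90 normalised counts in cen4- at 180 min and 1294 ± 38 in CEN4, having averaged 3101 ± 142 in CEN4* and 3022 ± 14 in CEN4 at 0 min (SD, n = 3 each). SAM2 thus changed by -0.53 in cen4- and by -1.22 in CEN4, an excision effect of 0.69 ± 0.07 (SE, limma adjusted p = 1.19e-12). SAM1, the paralog with the highest mean level per kilobase of the 37 genes (7806 normalised counts per kb over all libraries), averaged 6574 ± 193 normalised counts in cen4- at 180 min and 7338 ± 209 in CEN4, having averaged 14276 ± 612 in CEN4* and 14692 ± 715 in CEN4 at 0 min (SD, n = 3 each). SAM1 fell in both strains, and its excision effect of -0.12 was not called. SAM1 and SAM2 are closely similar in sequence, so reads could have been split between them in counting. MUP1, the high-affinity methionine permease, changed by -0.45 in cen4- and -0.91 in CEN4 at 180 min. MMP1, the S-methylmethionine permease, changed by -1.40 in cen4- and -1.98 in CEN4. SAM3, the S-adenosylmethionine permease, changed by -0.11 in cen4- and -0.70 in CEN4, and with every library scaled to the same total its change in cen4- was 0.20. All 4 permease genes were higher by the excision effect at 180 min (19.8% of all tested genes), from 0.47 for MUP1 to 0.73 for YCT1. MHT1, an S-methylmethionine homocysteine methyltransferase, is the divergent neighbour of MMP1, 342 bases away, and was higher by 0.60.

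SAM4 (YPL273W, chrXVI:25087-26064, plus strand), the S-adenosylmethionine homocysteine methyltransferase gene, went the other way. At 180 min SAM4 had 1793, 1689 and 1702 normalised counts in cen4-, against 2607, 2470 and 2430 in CEN4. At 0 min it had 3024, 3023 and 3110 in CEN4*, against 3410, 3273 and 3376 in CEN4. At both times all libraries of the lox strain were below all CEN4 libraries. The difference at 0 min was -0.14 ± 0.04 (SE, limma adjusted p = 0.0155). That call was lost with every library scaled to the same total and in 4 of the settings that left out a single 0 min library (CEN4* replicate 1 or 2, CEN4 replicate 1 or 3), with an adjusted p up to 0.166. The excision effect at 180 min was -0.40 ± 0.06 (SE, limma adjusted p = 6.45e-08). SAM4 lies 385 bases downstream of SAM3 on the same strand, and SAM3 was higher by 0.59.

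**Figure D4:**
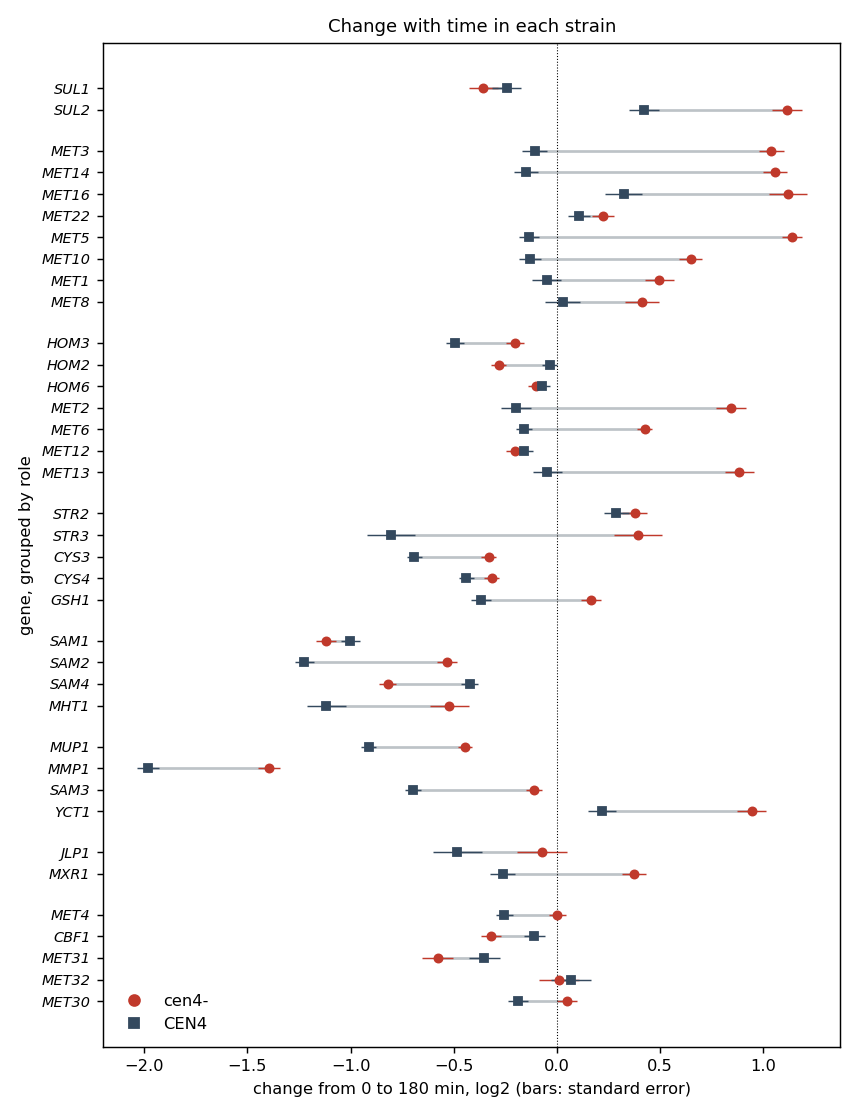
Change from 0 to 180 min (log2, horizontal axis) of each of the 37 tested sulfur genes, grouped by role, in cen4- (red circles) and CEN4 (dark blue squares) with standard errors as bars and a grey line joining the strains. The reduction genes lie right of 0 in cen4- and, MET16 excepted, near 0 in CEN4. The S-adenosylmethionine and permease genes lie left of 0 in both strains except YCT1, and SAM3 in cen4- lies right of 0 (0.20) with every library scaled to the same total.

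Of the genes for sulfonate use and methionine repair, MXR1 (YER042W, chrV:234937-235491, plus strand) was called at 30 min. It encodes methionine sulfoxide reductase, which returns oxidised methionine to its reduced form. At 30 min MXR1 had 450, 498 and 538 normalised counts in cen4-, against 380, 357 and 398 in CEN4. At 0 min it had 617, 666 and 649 in CEN4*, against 720, 674 and 654 in CEN4. The strains overlapped at 0 min and were apart at 30 min, when both were below their start. The excision effect was 0.47 ± 0.08 (SE, adjusted p = 0.000278) at 30 min and 0.64 ± 0.08 (adjusted p = 4.6e-09) at 180 min by limma. JLP1, a sulfonate dioxygenase, had an effect of 0.41 at 180 min with an adjusted p of 0.0459 by limma. The JLP1 call was lost in 12 of 40 alternative settings, with an adjusted p up to 0.176, and 8 of those 12 left out a single library.

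The effects on the 5 tested regulators at 180 min ranged from -0.23 to 0.26. MET4 was higher by 0.26 ± 0.06 (SE, limma adjusted p = 0.000244) and MET30 by 0.24 ± 0.07 (adjusted p = 0.00276) at 180 min. MET4 overlaps the reading frame YNL103W-A, which averaged 3.88 normalised counts. CBF1 was lower by the excision effect, with -0.21 ± 0.07 (SE, limma adjusted p = 0.0112), and averaged 852 ± 20 normalised counts in cen4- and 1010 ± 60 in CEN4 (SD, n = 3 each). The CBF1 call was lost with every library scaled to the same total and without CEN4 180 min replicate 3, with an adjusted p up to 0.233 over the 40 alternative settings. MET31 and MET32 had effects of -0.23 and -0.06, and neither was called.

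The effects were read beside the promoter letters as a description, in the sulfur genes only and not in other genes with these letters. Of the 37 tested sulfur genes 25 were higher and 3 lower at 180 min, against 19.8% and 22.5% of all tested genes. The subsets below were not tested against each other. Of the 19 tested genes with CACGTG in the window, 15 were higher and 1 was lower at 180 min, with a median effect of 0.53. Of the 19 tested genes with CTGTGG, 14 were higher and 0 lower, with the same median. Of the 8 tested genes with both, 7 were higher. In the 7 genes with neither, 3 were higher and 2 lower, with a median of -0.11; STR3, with one of the largest effects, was among these 7. MHT1 and MMP1 share 1 intergenic stretch, so their CTGTGG matches are the same letters counted for both genes.

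The direct difference of the strains was also tested at each time. At 0 min 1 of the 37 genes was higher in CEN4*, SUL2, and 3 were lower, CYS3, SAM4 and MUP1 (8.83% and 7.06% of all genes). This count of 4 depended on single libraries: it was 1 without CEN4 0 min replicate 1 and 2 without any 1 of CEN4* 0 min replicates 1, 2 and 3 or CEN4 0 min replicate 3. At 30 min 12 were higher in cen4- and 2 lower (14% and 16.3%), at 60 min 12 and 1 (13.3% and 13.8%), and at 120 min 24 and 3 (26.6% and 26.2%). At 180 min 26 were higher and 5 lower, where 30.9% and 33.2% of all genes were. With every library scaled to the same total, the strain difference was called higher for 1 gene at 0 min, for 19 at 30 min and for 17 at 60 min (15.9%, 26.1% and 23.8% of all genes), and lower for 0 genes at each of these times (3.61%, 8.37% and 7.3%). Counted by libraries, all CEN4* values lay above all CEN4 values for 1 gene at 0 min and below for 12, where 14.8% and 15.1% of all tested genes did so. At 180 min all cen4- values lay above all CEN4 values for 26 of the 38 genes and below for 6, where 33.6% and 35.8% of all tested genes did so.

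Within each strain, more of the genes fell than rose by 30 min. From 0 to 30 min 5 genes rose and 19 fell in cen4- (32.1% and 30% of all genes), and 2 rose and 25 fell in CEN4 (33.6% and 30.1%). With every library scaled to the same total these counts were 7 and 12 in cen4- (48.2% and 19%), and 6 and 17 in CEN4 (46.8% and 19.6%). MMP1 changed by -1.29 in cen4- and -1.62 in CEN4 by 30 min, and SAM1 by -1.08 in cen4- and -1.14 in CEN4. From 0 to 60 min 15 rose and 11 fell in cen4- (28.3% and 28.2%), and 9 rose and 16 fell in CEN4 (28.7% and 28.4%), or 20 and 4 in cen4- (53% and 13.3%) and 18 and 7 in CEN4 (50.5% and 13.7%) with the same total. From 0 to 120 min 14 rose and 17 fell in cen4- (36.4% and 35.6%), and 10 rose and 18 fell in CEN4 (35.2% and 35.4%), or 24 and 4 in cen4- (61.7% and 17.6%) and 17 and 12 in CEN4 (53.6% and 21.1%) with the same total. From 0 to 180 min 17 genes rose and 16 fell in cen4- (37.5% and 37.7%), and 4 rose and 25 fell in CEN4 (36% and 35.2%). With every library scaled to the same total the 180 min counts were 24 and 7 in cen4- (63% and 17.7%), and 11 and 13 in CEN4 (55.5% and 20.1%). That scaling moved the median change of all genes by 0.31 in cen4- and 0.21 in CEN4 at 180 min. Relative to the median of all genes, the median change of the sulfur genes at 180 min was 0.01 in cen4- and -0.19 in CEN4. By construction the scaling leaves these distances nearly unchanged.

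Of the 37 tested genes HOM2, SAM2 and MET32 lie on chromosome IV, whose centromere was excised. Their excision effects at 180 min were -0.25, 0.69 and -0.06, with a median of -0.06 against 0.50 for the 34 on other chromosomes, and 3 genes are too few to read a difference.

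Genes next to the pathway gave a mixed picture by the excision effect at 180 min, at which 19.8% of all tested genes were higher and 22.5% lower, and these lists are too short to be set apart from those shares. Effects are given in brackets after the genes. Of 7 methionine salvage genes, which recover methionine from methylthioadenosine, UTR4 and ADI1 were higher (0.33 and 0.34) and MRI1, MDE1 and ARO9 lower (-0.36, -0.42 and -0.26). Of 7 glutathione genes DUG3 and ECM38, which break glutathione down, were higher (0.69 and 0.51) and 0 lower. Of 9 other sulfur genes the low-affinity methionine permease gene MUP3 and the amino acid permease gene AGP3 were higher (0.83 and 0.50), and the sulfite exporter gene SSU1, IRC7, TUM1 and MET7 were lower (-0.62, -0.55, -0.38 and -0.16). IRC7 averaged 890 ± 10 normalised counts in cen4- at 180 min and 862 ± 45 in CEN4, a difference that was not called, having averaged 1428 ± 54 in CEN4* and 941 ± 24 in CEN4 at 0 min (SD, n = 3 each), so its effect came with the loss of a difference of 0.60 present at 0 min. Of 4 genes that supply NADPH and thioredoxin, ZWF1 and TRR1 (on chromosome IV) were higher (0.52 and 0.36) and TRX1 lower (-0.37). ZWF1 encodes the first enzyme of the pentose phosphate pathway, a source of the NADPH that sulfate reduction consumes. Of 4 partners of Met30 in its ubiquitin ligase, the cullin gene CDC53 and the E2 gene CDC34 were higher (0.98 and 0.27), and SKP1, the adaptor gene, had an effect of -0.14 that was not called; these 3 lie on chromosome IV. CDC53 had 2715, 2869 and 2786 normalised counts in cen4- at 180 min, against 1292, 1327 and 1327 in CEN4. At 0 min it had 1311, 1311 and 1302 in CEN4*, against 1248, 1214 and 1191 in CEN4, so the libraries of the strains did not overlap at either time. Of the marker genes in the strains, LEU2 and HIS3 were lower (-0.37 and -0.50). LEU2, the marker of the Cre construct, was lower in the lox strain from the start: it averaged 2629 ± 4.7 normalised counts in cen4- at 180 min and 6096 ± 127 in CEN4, a strain difference of -1.21, and 2049 ± 52 in CEN4* at 0 min and 3680 ± 152 in CEN4, a strain difference of -0.84 (SD, n = 3 each).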

How the data were processed

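The authors deposited normalised counts (unit signal), each one the reads of a gene over the size factor that DESeq2 gave the library, per the labels. The submitters' processing notes name STAR 2.6.1 and DESeq2 as tools and R64 (sacCer3) as build. Which counter, strand setting and annotation were used is not given in the sources used here, and overlapping genes can therefore share reads. Each library's values were divided by its lowest value above 0, taken as 1 read. This gave whole reads, to within 1e-06 of a read, for 100% of values in all 30 libraries. These reads entered the count tests tried as alternatives. Replicates come from 3 independent experiments; the 30 pairs of replicate libraries differed by more than counting noise (chi-square per degree of freedom 1.48 to 7.90 over genes with at least 40 reads).

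The test was limma 3.58.1 (R 4.3.3) on log2(value + 1), with trend and robust options and 10 group means, over 5948 genes (mean value 10 or more), and a call needed a Benjamini-Hochberg adjusted p below 0.05 within a comparison. The pseudocount of 1 understates changes of low genes. The limma step was run on simulated data with independent libraries, in which only the cen4- 180 min group was changed. That setting is simpler than these data, so it checked the working of the step and not its error rate here. edgeR 4.0.16, DESeq2 1.42.0, other pseudocounts, filters, scalings and fits, and leaving out each library were alternatives. Sequences and motif matches come from RefSeq's R64 genome, to which all 38 genes matched by identifier. The genes, the lists beside them and the tests were chosen with earlier results of these data known. Genes are named by role, and library values are printed for the largest called effects (8 at 180 min, 2 at each earlier time). No promoter or protein table was used here, so the promoter letters were read from the genome and no protein is shown.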

Additional observations from a re-analysis of the deposited data

Results flagged for a closer look

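Of the sulfur genes with a called excision effect, 8 rose in cen4- between 0 and 180 min while they fell in CEN4. Each change was called on its own, and their difference is the excision effect. Of all tested genes 37.5% rose in cen4- and 35.2% fell in CEN4 over this time. The share of all genes that did both with a called effect was not counted. MET5 had an effect of 1.27, from a change of 1.14 in cen4- and -0.14 in CEN4. MET14 had 1.21, from 1.05 in cen4- and -0.15 in CEN4. STR3 had 1.20, from 0.39 in cen4- and -0.80 in CEN4, and MET2 had 1.04, from 0.84 in cen4- and -0.20 in CEN4. MET10 had 0.78, from 0.65 in cen4- and -0.13 in CEN4, and MXR1 had 0.64, from 0.37 in cen4- and -0.26 in CEN4. MET6 had 0.58, from 0.42 in cen4- and -0.16 in CEN4. GSH1 had 0.53, from 0.17 in cen4- and -0.37 in CEN4, and its effect at 120 min was 0.27, from 0.11 in cen4- and -0.17 in CEN4. The changes in CEN4 of MET5, MET14, MET10, MET2 and MET6 were above 0 with every library scaled to the same total, while their excision effects stayed positive.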

How the results depend on the processing

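Of the 28 excision effects called at 180 min, 2 (JLP1 and CBF1) lost the call in some of 40 alternative settings and the others kept direction and call. With every library scaled to the same total, 1 gene was lower by the excision effect at 120 min, and 1 gene was called in the strain difference at 0 min. Signs turned in 17 cases, all under that scaling. The strain difference of SAM1 at 180 min became 0.0013. Changes to 30 min in cen4- became 0.0338 for HOM6 and 0.0091 for GSH1, and that of HOM6 in CEN4 became 0.0359. Changes to 180 min in cen4- became 0.108 for HOM3, 0.0307 for HOM2, 0.211 for HOM6, 0.1087 for MET12 and 0.2013 for SAM3. Under that scaling HOM3, HOM6, MET12 and SAM3 were called as rises in cen4- (limma adjusted p = 0.023, 1.37e-06, 0.0244 and 5.07e-06). HOM2 was not called, nor was any other turned sign. Changes to 180 min in CEN4 became 0.0575 for MET14, 0.0727 for MET5, 0.0767 for MET10, 0.0098 for MET2, 0.0502 for MET6, 0.049 for MET12, 0.0991 for CBF1 and 0.0195 for MET30. By construction this scaling adds a nearly constant shift to each comparison. Leaving out single libraries gave 4 to 8 higher and 0 lower for the excision effect at 30 min, 2 to 8 higher and 0 lower at 60 min, 18 to 22 higher and 2 lower at 120 min, and 24 to 26 higher and 2 to 4 lower at 180 min. For the strain difference it gave 1 to 4, 11 to 15, 10 to 13, 25 to 27 and 30 to 32 called genes at 0, 30, 60, 120 and 180 min. For changes with time it gave 21 to 24, 23 to 26, 29 to 31 and 32 to 33 in cen4- and 24 to 28, 23 to 25, 26 to 29 and 26 to 29 in CEN4. Each sample number in the titles joins 1 lox strain library and 1 CEN4 library of the same time. The deviations of such libraries correlated by -0.10 to 0.12 over 15 pairs, 1 of them over 0.1. These low values do not show whether the samples were paired. Pairing by experiment across the times was not fitted. With the title number as a replicate block, the excision effect called 7, 6, 20 and 25 genes higher and 0, 0, 2 and 3 lower at 30, 60, 120 and 180 min.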
